A study of Mus musculus with 26 samples.

Results

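The immediate early genes and the heat shock genes are the parts of the transcriptome that answer fastest to growth factors, handling and stress, and 10 of them were followed here across every library of a set of mouse gastruloids. They were taken by gene name: Jun, Junb, Fos and Fosb (subunits of the dimeric transcription factor AP-1), Egr1 (a zinc finger transcription factor), Atf3 (a transcription factor of the ATF/CREB family), Ier2 (an immediate early gene of the same response), Dusp1 (a phosphatase that switches off MAP kinases), Hspa1a (an inducible HSP70 chaperone) and Dnajb1 (an HSP40 co-chaperone). All 10 names had 1 row each among the 55141 genes of the count table. All 10 passed the filter on low counts in both fits described below, although Hspa1a did so with few counts.

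Gastruloids are small bodies grown from mouse embryonic stem cells, which lengthen in the dish and make cell types of the embryo's trunk. Polyadenylated RNA of 8 lines was sequenced in 26 libraries. The allele HoxB Del/Del(i9-13), in the HoxB cluster of axial patterning genes, is common to every line, the reference included. That reference, with nothing else edited, is called Del. The line Ins has Ins(CBS5-10) on top. Built on Ins(CBS5-10) are InsDel5to10 with Del(CBS5-10), InsDel7to10 with Del(CBS7-10) and InsDel8to10 with Del(CBS8-10). The inversion Ins(CBS5-10):Inv(CBS5-10) exists as 2 clones, InvClone1 and InvClone2, so each is 1 clone, and InvDel7to10 joins the inversion to Del(CBS7-10). The 120h stage, counted from aggregation, has most libraries: InvClone1 has 4, Del and Ins have 3 each, InsDel5to10, InsDel7to10 and InvClone2 have 2 each, and both InsDel8to10 and InvDel7to10 have 1. The 144h stage has 2 libraries for InvClone1 and 1 for each of InsDel8to10, InvDel7to10, Ins and Del. The stages 96h and 168h have 1 InvClone1 library each. The labels used here name no added stimulus or heat shock for any library.

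The labels also give each library a library name, which divides lines and stages unevenly. ISML_first holds 4 libraries (replicates 1 and 2 of Del and Ins at 120h). ISML_second holds 10 (a 120h and a 144h library of Del, Ins, InsDel8to10, InvClone1 and InvDel7to10). ISML_third holds 10 (all libraries of InsDel5to10, InsDel7to10 and InvClone2, and 1 of InvClone1 at each of the 4 stages). TruSeq_second holds replicates 2 and 3 of InvClone1 at 120h. The first 3 names stand for libraries of the ISML kit and the last for the TruSeq Stranded mRNA kit, and the labels do not say what sets the first 3 apart.

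Total counts ran from 18746411 to 37716547 per library (median 22616412). 3 libraries stood apart from the rest. InvClone1_120h replicate 1 (ISML_third) differed from the other replicates of its group by 117 to 138 chi-square units per degree of freedom, against 33.0 to 66.4 among those. InvClone1_120h replicate 2 (TruSeq_second) had counts for 54.8% of the genes, against 37.5 to 43.4% elsewhere. InvClone1_144h replicate 2 (ISML_second) had 0.0864% of its counts in mitochondrial genes, against 0.587 to 1.51% elsewhere. Results that rest on these libraries are given with and without them where that could be fitted. The markers of trunk tissues that a gastruloid should hold (5 tailbud, 5 presomitic, 6 somite and 5 neural tube genes) were present, with 0 of them at 0 counts in all 120h libraries of a library name. In these bulk samples fewer cells of a type and less RNA per cell cannot be told apart.

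As background, immediate early genes are transcribed within minutes of a signal without new protein synthesis. MAP kinases act on factors already bound at their promoters, such as SRF with its ELK partners at CArG boxes and CREB at cyclic AMP response elements (CRE). AP-1 dimers of FOS and JUN proteins then switch on later genes, while DUSP1 shuts the kinases down again. Heat shock genes are switched on by HSF1, which binds repeated GAA and TTC blocks (heat shock elements), and their products refold damaged proteins.

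The upstream sequences of 4 of the genes are shown as examples. They hold matches to CRE or heat shock elements, though none to CArG boxes. The other genes with a matched promoter, described after the sequences, hold CRE matches too. A link between such matches and the levels below was not tested. The sequences are the 250 bases before the annotated start in RefSeq, build GRCm38.p6, written 5′ to 3′ on the gene's own strand. Capitals mark matches on either strand to 4 motifs. The CRE-like site was searched as TGACNTCA. The CRE core was searched as TGACG, which overlaps the former motif where its open letter is that of the core. A pair of heat shock blocks was searched as GAANNTTC. The TATA box was searched as TATAAA.
Fos, chr12:85473640-85473889, plus strand: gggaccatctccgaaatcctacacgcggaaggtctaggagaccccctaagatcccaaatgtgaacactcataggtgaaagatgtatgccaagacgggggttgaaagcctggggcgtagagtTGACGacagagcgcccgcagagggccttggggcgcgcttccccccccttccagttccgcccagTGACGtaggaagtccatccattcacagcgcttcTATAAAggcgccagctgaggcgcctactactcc
Jun, chr4:95052223-95052472, minus strand: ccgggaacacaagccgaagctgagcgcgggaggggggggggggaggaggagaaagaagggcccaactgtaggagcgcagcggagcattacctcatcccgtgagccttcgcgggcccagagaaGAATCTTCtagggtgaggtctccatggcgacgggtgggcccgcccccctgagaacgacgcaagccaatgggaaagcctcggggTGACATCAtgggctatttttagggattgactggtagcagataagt
Junb, chr8:84978749-84978998, minus strand: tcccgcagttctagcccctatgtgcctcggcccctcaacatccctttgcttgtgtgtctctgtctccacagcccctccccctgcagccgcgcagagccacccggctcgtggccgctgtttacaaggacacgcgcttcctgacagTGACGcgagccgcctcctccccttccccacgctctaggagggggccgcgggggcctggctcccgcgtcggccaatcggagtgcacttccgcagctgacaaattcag
Hspa1a, chr17:34972157-34972406, minus strand: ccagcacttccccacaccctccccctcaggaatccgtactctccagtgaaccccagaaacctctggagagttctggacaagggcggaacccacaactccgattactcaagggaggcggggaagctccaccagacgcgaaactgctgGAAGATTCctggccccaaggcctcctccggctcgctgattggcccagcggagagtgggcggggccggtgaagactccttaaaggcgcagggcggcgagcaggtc

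Fos held 2 CRE cores, which begin 129 and 66 bases before the start, and the only TATA box among the matched genes. Jun held the CRE-like site TGACATCA, 45 bases before the start, and a heat shock pair. Junb held 1 CRE core and Hspa1a 1 heat shock pair. RefSeq promoters were matched for 8 of the 10 genes, among them Atf3, Fosb, Dnajb1 and Dusp1. TGACG was held by Fos, Fosb, Junb, Atf3 and Dusp1, and by 1 of the 2 promoters of Dnajb1. TGACNTCA was held by Jun and Dusp1. Among 32851 promoters of the same length, 17.8% held TGACG, 7.49% TGACNTCA, 6.69% GAANNTTC and 12.4% TATAAA. A CArG box (1.47% of promoters) and the AP-1 letters TGANTCA (6.75%) were not found in these windows for any of the 8. Sequence farther upstream was not searched. Such matches describe letters in a window and are not evidence of binding.

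Levels can be compared between genes only per length, so the order was read from the authors' FPKM (fragments per kilobase of transcript and per unit of depth). Ier2 stood highest with a median of 32.9 FPKM over the 26 libraries (7.35 to 86.4), followed by Dnajb1 with 19.2 FPKM (14.4 to 24.8). Jun had a median of 5.12 FPKM and Dusp1 of 4.36 FPKM. Atf3 followed with 2.14 FPKM and Egr1 with 1.45 FPKM. The remaining AP-1 genes lay lower, with Junb at 0.616 FPKM, Fos at 0.381 FPKM and Fosb at 0.0737 FPKM. Hspa1a was lowest with 0.0351 FPKM (0 to 0.163). The steps in this order were uneven. Dnajb1 exceeded Jun in 26 of 26 libraries and Dusp1 exceeded Atf3 in 26 of 26, whereas Atf3 exceeded Egr1 in 14, Jun exceeded Dusp1 in 17, and Ier2 exceeded Dnajb1 in 18, as did Junb over Fos. Those neighbours change places between libraries.

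Within a gene, levels are in CPM (counts scaled to the size of each library, with the TMM method of edgeR). Dnajb1 varied least, with a highest CPM 1.74 times its lowest, followed by Dusp1 with 2.06 times. Atf3 varied 6.01 times, Ier2 12.2 times, Egr1 16.5 times and Jun 17.1 times. Junb, Fos and Fosb had libraries with 3 counts or fewer (3, 3 and 4 libraries), so that no such ratio is given. Hspa1a had 3 counts or fewer in 15 libraries and 0 in 1, and its highest value was 12 counts. It has a near-identical copy, Hspa1b, on the same chromosome, and how the counting divided reads between the pair is not known. The values of Hspa1a are therefore uncertain.

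**Figure D1:**
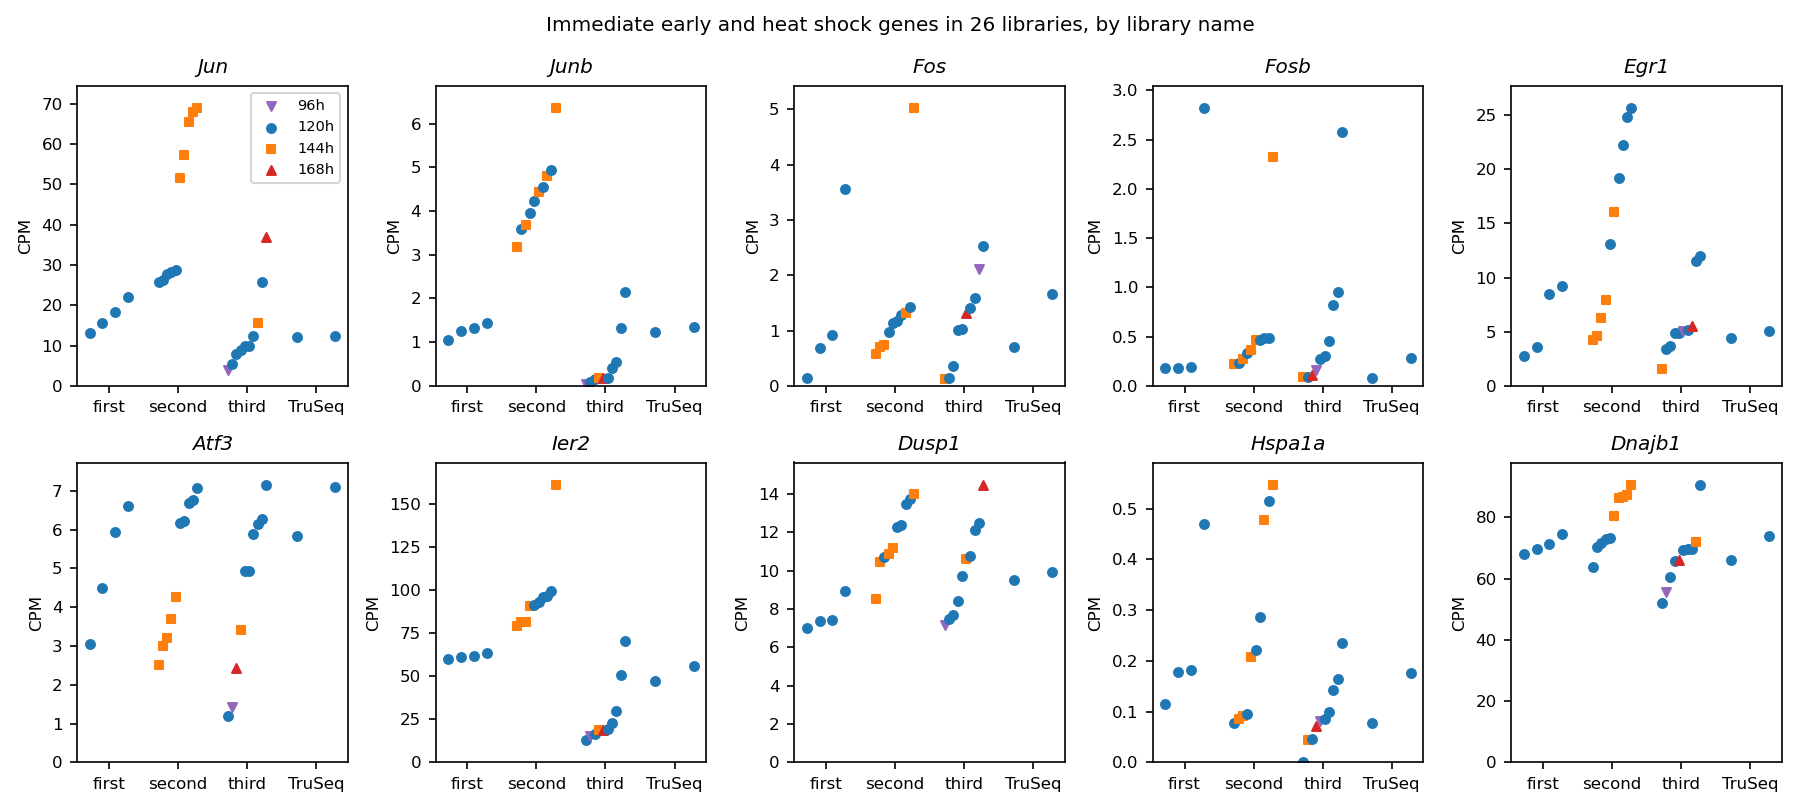
CPM (y axis, from 0) of each gene in the 26 libraries, grouped by library name on the x axis and ordered by value within a name, with stage as colour and shape. Junb and Ier2 are higher in every ISML_second library than in the others, Jun separates the 144h from the 120h libraries of ISML_second, and Dnajb1 and Dusp1 vary least.

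The clearest division among the libraries was by library name, and it fell on Jun, Junb, Ier2 and Egr1. For Junb, the 10 ISML_second libraries lay between 3.17 and 6.35 CPM, above all 16 other libraries. Ier2 also stood above in ISML_second with no overlap, so that 2 of the 10 genes did, where 1.54% of all genes tested did so, and 0 of the 10 were lower. The ISML_first libraries had 1.04 to 1.45 CPM and those of TruSeq_second 1.23 and 1.35 CPM. Of the ISML_third libraries, InsDel7to10_120h replicate 1 had 2.14 CPM and InvClone2_120h replicate 2 had 1.33 CPM, and the other 8 stayed at 0.557 CPM or below. In counts, the 4 InvClone1 libraries of ISML_third held 1, 2, 4 and 5 reads of Junb, while InvClone1_120h replicate 4 and InvClone1_144h replicate 2 of ISML_second held 128 and 122.

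Ier2 had the same layout at a higher level. At 120h the 5 ISML_second libraries had 95.2 ± 3.18 CPM (SD, n = 5), the 4 ISML_first libraries 61.5 ± 1.31 CPM (SD, n = 4), the 2 TruSeq_second libraries 47.0 and 55.9 CPM and the 7 ISML_third libraries 13.2 to 70.6 CPM (median 22.7). The first 3 sets do not overlap. Jun at 120h was 27.4 ± 1.23 CPM in ISML_second (SD, n = 5), 17.3 ± 3.82 CPM in ISML_first (SD, n = 4), 12.2 and 12.4 CPM in TruSeq_second and 5.31 to 25.7 CPM in ISML_third (median 9.78). Egr1 at 120h was 21.0 ± 5.08 CPM in ISML_second (SD, n = 5), 5.99 ± 3.32 CPM in ISML_first (SD, n = 4), 4.47 and 5.03 CPM in TruSeq_second and 3.41 to 11.96 CPM in ISML_third (median 4.89). For both genes every ISML_second library at 120h was above every other 120h library, although for Jun the lowest of them, at 25.9 CPM, was hardly above InsDel7to10_120h replicate 1 at 25.7 CPM. With Junb and Ier2 that is 4 of the 10 genes, where 5.52% of all genes tested were higher in ISML_second in this way (3.82% were lower, and 0 of the 10). Dnajb1, in contrast, had 70.4 ± 3.86, 70.8 ± 2.77 and 68.2 ± 11.8 CPM in ISML_second, ISML_first and ISML_third (SD, n = 5, 4 and 7), and these sets overlap. The sets also differ in line. In InvClone1 alone Dnajb1 had 52.2 CPM in ISML_third against 73.4 in ISML_second at 120h, and 71.8 against 90.7 at 144h. Its log2 fold change in the fit described next was -0.41 ± 0.16 (SE; edgeR adjusted p = 0.0563), which did not pass.

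A line sampled under more than 1 library name allows a comparison with line and stage held constant. ISML_third and ISML_second share InvClone1 at 120h and at 144h, with 1 library under each name at each stage. In the fit of all 26 libraries (edgeR quasi-likelihood test, Benjamini-Hochberg adjustment over 17769 genes), 4 of the 10 genes were lower in ISML_third and 0 were higher. DESeq2 and the fit with no filter on low counts called 5, with Fos added, and line and stage terms in place of group called 5, with Dnajb1 added. Over all genes 36.3% were called, 20.7% lower and 15.7% higher, so that calls were common. The log2 fold change was -5.35 ± 0.95 (SE) for Junb (edgeR adjusted p = 0.0014). It was -2.99 ± 0.52 (SE) for Ier2 (edgeR adjusted p = 0.0017), -2.24 ± 0.35 (SE) for Jun (edgeR adjusted p = 0.000789) and -2.18 ± 0.57 (SE) for Egr1 (edgeR adjusted p = 0.0104). The median of the 10 genes was -2.21, against -0.0542 over all genes, and all 10 values were negative. Atf3 was the highest at -0.02 ± 0.51 (SE), and its sign turned under other settings.

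In the libraries themselves, Jun was 5.31 CPM against 27.8 at 120h and 15.7 against 68.0 at 144h, the ISML_third value first. Ier2 was 13.2 CPM against 96.5 at 120h and 18.8 against 161 at 144h. Egr1 was 3.69 CPM against 25.6 at 120h and 1.55 against 4.22 at 144h. All 3 genes were lower in the ISML_third library at both stages. Leaving out either 120h library ended the call of Egr1 (log2 fold change -1.44, edgeR adjusted p = 0.186). This comparison rests on 2 of the 3 libraries that stood apart and could not be fitted without them.

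Related genes moved in the same comparison, in both directions. Of 35 other immediate early genes tested, 13 were lower in ISML_third and 2 higher (median -0.942). The lower ones with the smallest adjusted p were Ier5 (-1.30), Srf (-2.21), Ier5l (-3.92) and Rhob (-1.60, a small GTPase), and Errfi1 (0.87) and Klf6 (0.59) were higher. Srf encodes the factor that binds CArG boxes. Of 13 upstream factors, 6 were higher, among them the kinase Mapk8 (0.85), the CRE-binding factor Creb1 (0.68) and Hsf2 (0.51), and 2 were lower, Mrtfa (-1.32, a coactivator of SRF) and Hsf1 (-0.89, the heat shock factor). Of 21 other heat shock genes, 4 were lower (Serpinh1 -1.54, Fkbp4 -0.93, Bag3 -1.26 and Hspa1b -2.21) and 2 higher (Dnajb4 0.96 and Dnaja1 0.38), with a median of -0.0176. Of 11 genes of the stress response of the endoplasmic reticulum, Ppp1r15a (-1.08) and Ddit3 (-1.01) were lower and Dnajb9 (0.83) was higher. Tissue markers moved as well: 4 of 5 tailbud, 2 of 5 presomitic, 3 of 6 somite, 2 of 7 endoderm, 1 of 3 notochord and 3 of 4 cardiac markers were lower and 0 of all these were higher. Of the neural tube, endothelial and blood, and pluripotency markers, 5 tested in each list, 0 were called. For pluripotency 3 of the 5 values were positive. Of all genes 20.7% were lower and 15.7% higher. The part of tissue makeup, library depth or kit handling in the differences was not tested.

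ISML_second and ISML_first share Del and Ins at 120h. At 120h, Jun, Junb, Egr1, Ier2 and Dusp1 were higher in all 5 ISML_second libraries than in all 4 ISML_first libraries, that is 5 of 10 genes, where 17.8% of all genes tested did so (16.4% were lower without overlap, and 0 of the 10). These 9 libraries differ in line as well as in name. In the fit with line and stage held constant, 2.3% of all genes were called (409, 1.9% higher and 0.4% lower) and 0 of the 10. At an unadjusted p under 0.05 there were 4 of the 10 (Jun, Junb, Egr1 and Dusp1). Junb had the highest log2 fold change, 1.67 ± 0.58 (SE; edgeR adjusted p = 0.15), and Fosb the lowest, -0.33 ± 1.06 (SE). The sign of Fosb turned without Del_120h replicate 1 (1.35) and without Del_120h replicate 3 (1.32). Egr1 followed Junb with 1.52 ± 0.43 (SE; edgeR adjusted p = 0.0893). DESeq2 called 1 of the 10, Egr1. Without Del_120h replicate 1 edgeR called Egr1 as well. The median of the 10 genes was 0.661, against 0.0355 over all genes. Of the related genes, Dnaja1 alone passed (-0.47, edgeR adjusted p = 0.0272). The summed endoderm markers ran from 32.9 to 165 CPM in the ISML_first libraries and from 190 to 267 CPM in the ISML_second libraries at 120h. The endothelial and blood markers ran from 7.20 to 49.6 CPM and from 81.3 to 151 CPM, the notochord markers from 3.29 to 8.89 CPM and from 13.5 to 16.7 CPM, and the cardiac markers from 1.04 to 2.76 CPM and from 3.02 to 9.05 CPM. None of these 4 sums overlapped between the 2 names. Those of the tailbud, presomitic, somite, neural tube and pluripotency markers did overlap. The part of tissue makeup in the result was not tested.

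TruSeq_second and ISML_second share InvClone1 at 120h, with 2 libraries against 1. Of all genes 0.405% were called (72, 0.186% higher and 0.219% lower), and 0 of the 10. At an unadjusted p under 0.05 there were 3 of the 10 (Jun, Junb and Egr1). Egr1 was lowest with a log2 fold change of -2.17 ± 0.56 (SE; edgeR adjusted p = 0.0946), and DESeq2 called it. Junb had -1.88 ± 0.79 (SE; edgeR adjusted p = 0.218) and Jun -1.11 ± 0.36 (SE; edgeR adjusted p = 0.145). Hspa1a was highest with 0.78, at 2 to 5 counts in the 3 libraries compared. Without InvClone1_120h replicate 2 and the other libraries that stood apart, the log2 fold change of Egr1 was -2.31 ± 0.78 (SE; edgeR adjusted p = 0.513) and 0 of the 10 were called. This comparison shares the ISML_second libraries with the others by library name, so that their values are not independent of each other.

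The stages could be compared in the 10 ISML_second libraries, where Del, Ins, InsDel8to10, InvClone1 and InvDel7to10 each have 1 library at 120h and 1 at 144h. The AP-1 subunit Jun and the co-chaperone Dnajb1 rose, and Egr1 and Atf3 fell. That is 4 of the 10 genes, where 15.1% of the 16043 genes tested were called (9.33% higher and 5.81% lower).

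Jun had 28.3, 25.9, 28.6, 27.8 and 26.3 CPM at 120h in Del, Ins, InsDel8to10, InvClone1 and InvDel7to10, and 68.9, 51.5, 65.6, 68.0 and 57.2 CPM at 144h. The stages do not overlap, and the log2 ratio lay between 0.99 and 1.29 in the 5 lines. Its fitted log2 fold change was 1.20 ± 0.07 (SE; edgeR adjusted p = 5.37e-05), from a mean of 27.4 ± 1.23 to 62.2 ± 7.55 CPM (SD, n = 5). Of the other AP-1 subunits, Jund, a member of the longer list below, rose by a log2 fold change of 0.54 (edgeR adjusted p = 0.017). Junb went from 4.25 ± 0.522 to 4.49 ± 1.22 CPM, Fos from 1.20 ± 0.168 to 1.67 ± 1.89 CPM and Fosb from 0.402 ± 0.116 to 0.730 ± 0.897 CPM (SD, n = 5), and these 3 did not pass the test. The difference between Jun and these genes was not itself tested.

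Atf3 had 7.06, 6.76, 6.22, 6.68 and 6.17 CPM at 120h in the same order of lines and 4.26, 3.21, 3.01, 2.50 and 3.68 CPM at 144h. The stages do not overlap, and the fitted log2 fold change was -0.97 ± 0.14 (SE; edgeR adjusted p = 0.00252). Egr1 had 13.1, 22.2, 24.8, 25.6 and 19.2 CPM at 120h and 6.26, 7.91, 16.1, 4.22 and 4.60 CPM at 144h. It was lower at 144h in each of the 5 lines, although InsDel8to10 at 144h was above Del at 120h, and the fitted log2 fold change was -1.52 ± 0.26 (SE; edgeR adjusted p = 0.00572). Dnajb1 had 63.8, 72.8, 70.2, 73.4 and 71.6 CPM at 120h and 86.5, 80.5, 86.4, 90.7 and 87.4 CPM at 144h. The stages do not overlap, but the rise was small, with a log2 fold change of 0.31 ± 0.06 (SE; edgeR adjusted p = 0.0124). Of all genes tested, 8.52% were higher at 144h with no overlap and 8.81% lower. Dnajb1 lost its call when any library of InsDel8to10, InvDel7to10 or Del was left out (edgeR adjusted p 0.0591 to 0.0768), while its fold change moved only between 0.28 and 0.32 in those fits.

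**Figure D2:**
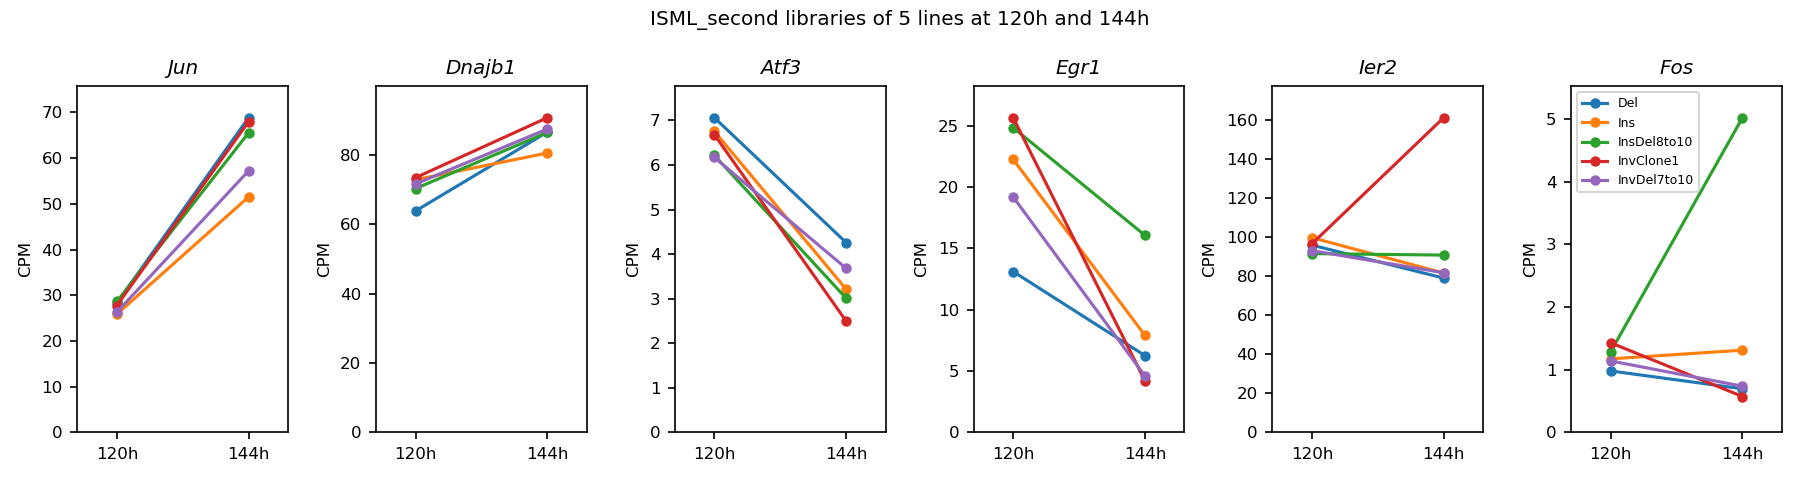
CPM (y axis, from 0) at 120h and 144h in the ISML_second libraries, with 1 line of the plot for each of the 5 gastruloid lines. Jun and Dnajb1 rise and Atf3 and Egr1 fall in each line, Ier2 is higher at 144h in InvClone1 alone, and Fos stands apart in InsDel8to10 at 144h with 5.02 CPM.

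Ier2 showed how 1 library can set such a value. At 120h and 144h it had 95.8 and 78.9 CPM in Del, 99.6 and 81.5 CPM in Ins, 92.9 and 81.7 CPM in InvDel7to10 and 91.4 and 90.7 CPM in InsDel8to10. In InvClone1 it was 96.5 CPM at 120h and 161 CPM at 144h, the latter in the library with the low mitochondrial share. The fitted log2 fold change over the 5 lines was 0.01 ± 0.15 (SE; edgeR adjusted p = 0.967). Without that library it was -0.18 ± 0.05 (SE; edgeR adjusted p = 0.00666). All 4 calls above held without it, and the number of genes called rose from 2429 to 4993. InvClone1_144h replicate 2 also had the highest Junb value of all libraries.

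Other genes of these responses did not move one way with the stage. Of 33 other immediate early genes tested, 11 rose and 3 fell (median 0.288, against -0.00747 over all genes). Those that rose with the smallest adjusted p were Ccn2 (1.61, a matricellular protein), Plk3 (1.51, a polo-like kinase), Nr4a3 (1.99, an orphan nuclear receptor) and Socs3 (0.72, an inhibitor of cytokine signalling). Jund, described above, is one of the 11. Dusp5 (-0.62, a MAP kinase phosphatase), Myc (-0.63) and Per1 (-0.44) fell. Of 21 other heat shock genes, Hspa4l (0.70), Hsph1 (0.31) and Hsp90aa1 (0.27) rose and 0 fell. Of the 13 upstream factors, 0 rose and 2 fell, Elk3 (-0.49) and Mapk3 (-0.40). Of 11 genes of the stress response of the endoplasmic reticulum, 4 fell and 0 rose: Chac1 (-1.997), Trib3 (-1.52), Asns (-0.69) and Herpud1 (-0.29). The other 7, Atf4 and Ppp1r15a among them, were not called. Of the 11 fold changes, 4 were positive and 7 negative, with Ddit3 highest (0.43, not called). The tissues changed over the same interval: the 5 neural tube markers all rose, with a summed level of 116 to 172 CPM at 120h and 338 to 541 CPM at 144h, and the 5 tailbud markers all fell, from 317 to 407 CPM at 120h to 91.7 to 239 CPM at 144h. The part of tissue makeup in the changes of Jun, Dnajb1, Atf3 and Egr1 was not tested.

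The only course over 4 stages is that of InvClone1 in ISML_third, with 1 library a stage, so it has no replicate check and no test. Intervals are 95% exact Poisson intervals and cover counting error only. Jun had 4.02 CPM at 96h (3.27 to 4.89), 5.31 CPM at 120h (4.38 to 6.37), 15.7 CPM at 144h (14.1 to 17.4) and 36.9 CPM at 168h (34.7 to 39.2). It was 9.17 times as high in the last library as in the first, and its log2 ratio of 144h to 120h was 1.56 in these libraries. This pair of libraries did not enter the stage fit, and Jun was higher at 144h in it too. Dusp1 had 7.19, 8.40, 10.6 and 14.5 CPM at the 4 stages. Its first and last intervals (6.17 to 8.32 and 13.1 to 16.0) do not overlap. Atf3 had 1.42, 4.94, 3.42 and 2.43 CPM, highest at 120h. Dnajb1 had 55.7, 52.2, 71.8 and 66.1 CPM. Egr1 had 5.03, 3.69, 1.55 and 5.53 CPM and Fos 2.11, 0.139, 0.133 and 1.32 CPM, both lowest at 144h, where Fos had 3 counts, as it had at 120h. Ier2 stayed between 13.2 and 18.8 CPM. The library at 120h is one of those that stood apart.

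**Figure D3:**
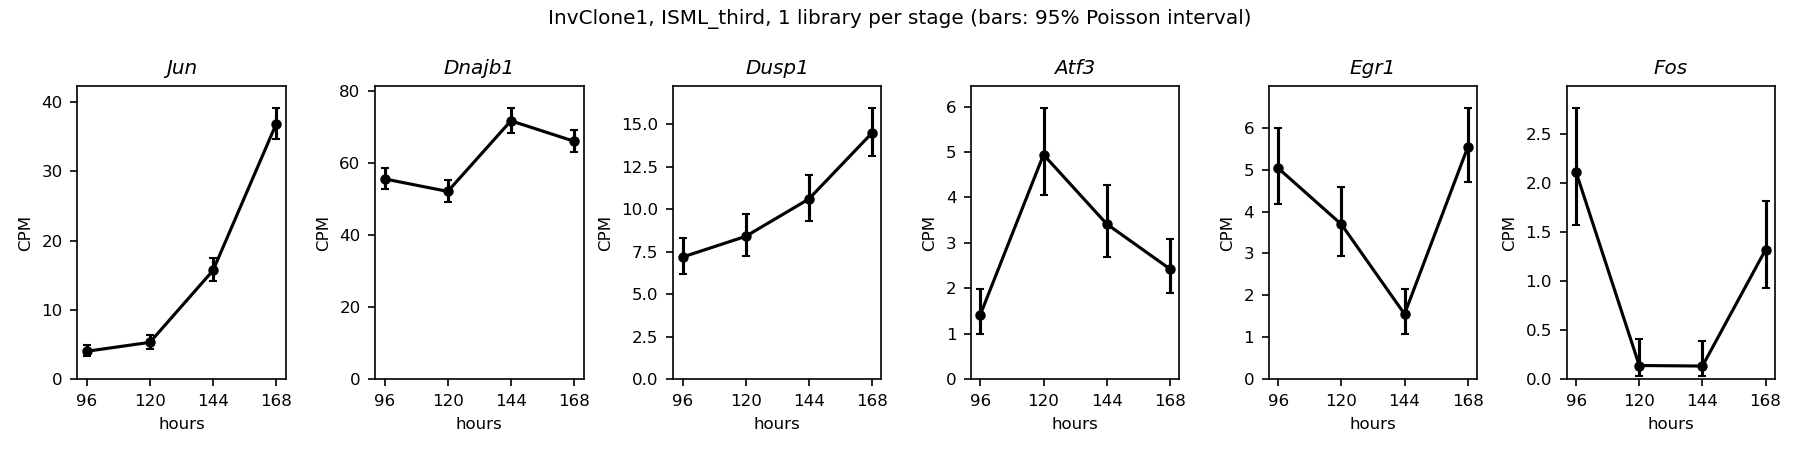
CPM (y axis, from 0) of 6 genes in the 4 ISML_third libraries of InvClone1 by hours after aggregation, with 95% Poisson bars and 1 library a stage. Jun is higher in each later library, from 4.02 to 36.9 CPM, whereas Egr1 and Fos are lowest at 144h.

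Pairs of lines with at least 2 libraries each at 120h were compared in the fit of the 26 libraries, which accounts for library name. In none of the 3 comparisons did any of the 10 genes pass the test, but these comparisons called few genes at all. Ins against Del asks what the Ins(CBS5-10) allele adds to the deletion. Here 0.00563% of all genes were called (1 gene), 0 of the 10 genes passed and 0 of the 10 had an unadjusted p under 0.05, and DESeq2 called 2 genes and 0 of the 10. Fosb was lowest with a log2 fold change of -2.03 ± 0.95 (SE; edgeR adjusted p = 1) and Egr1 highest with 0.27 ± 0.42 (SE). Without Del_120h replicate 1 the value of Fosb was -0.0216 (edgeR adjusted p = 1), and with no filter on low counts Fosb was called at the same fold change (edgeR adjusted p = 0.0193). The values of Fosb were 2.82, 0.181 and 0.490 CPM in replicates 1 to 3 of Del and 0.179, 0.191 and 0.469 CPM in those of Ins. The first of these libraries is the only high one, and the values of replicate 3, ISML_second in either line, rest on 12 and 10 counts. Egr1 turned in sign without Ins_120h replicate 1 (-0.0455) and without Del_120h replicate 2 (-0.0328).

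InsDel7to10 against InsDel5to10 compares Del(CBS7-10) with Del(CBS5-10), both within ISML_third. Of all genes 0.253% were called (45, 0.129% higher and 0.124% lower), and 0 of the 10. At an unadjusted p under 0.05 there were 3 of the 10 (Jun, Egr1 and Atf3). DESeq2 called 290 genes and 0 of the 10. Junb was highest with 1.64 ± 0.87 (SE; edgeR adjusted p = 0.533) and Atf3 lowest with -1.14 ± 0.51 (SE; edgeR adjusted p = 0.449). The median of the 10 genes was 0.904, against -0.000504 over all genes. The libraries of InsDel7to10 were unlike each other. Replicate 1 had 25.7 CPM of Jun, 2.14 CPM of Junb and 70.6 CPM of Ier2, and replicate 2 had 10.0, 0.191 and 16.2 CPM. InsDel5to10 had 7.86 and 8.83 CPM of Jun, 0.150 and 0.557 CPM of Junb and 19.3 and 22.7 CPM of Ier2, nearer to replicate 2 than to replicate 1. Without InsDel7to10_120h replicate 1 the log2 fold change of Junb was -0.906. Without replicate 2 it was 2.54 (edgeR adjusted p = 0.0379), and Jun and Ier2 were called as well. Atf3 differed in the other direction, with 4.94 and 1.19 CPM in InsDel7to10 and 7.16 and 6.26 CPM in InsDel5to10. These groups do not overlap, and neither do those of Jun, Fos, Egr1 and Hspa1a, which were higher in InsDel7to10. For Hspa1a the separation rests on 3 counts or fewer in each library (0.143 and 0.165 CPM against 0.0858 and 0.100 CPM). Such separation was common with 2 libraries against 2: 14.9% of all genes tested were higher and 17% lower with no overlap.

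InsDel5to10 against InvClone2, which shares the InsDel5to10 libraries with the comparison before it, had 0.152% of all genes called (27, 0.129% higher and 0.0225% lower) and 0 of the 10. At an unadjusted p under 0.05 there was 1 of the 10, Dusp1, and DESeq2 called 50 genes and 0 of the 10. In the compared libraries alone with a replicate block, Ier2 was called (log2 fold change -0.878, edgeR adjusted p = 0.00162) and so were 932 genes in all, and with no filter on low counts it was called as well (edgeR adjusted p = 0.000154). Ier2 had 19.3 and 22.7 CPM in InsDel5to10 and 29.8 and 50.4 CPM in InvClone2. Junb was lowest with -1.27 ± 0.86 (SE; edgeR adjusted p = 0.791) and Fos highest with 0.85 ± 1.00 (SE). Dusp1 had 12.1 and 9.73 CPM in InsDel5to10 and 7.68 and 7.49 CPM in InvClone2, groups that do not overlap. Fos and Atf3 were also higher without overlap and Jun and Ier2 lower, where 16.5% of all genes tested were higher and 21.7% lower in this way. Of the 35 other immediate early genes, 21 other heat shock genes, 13 upstream factors and 11 genes of the endoplasmic reticulum response, 0 passed in any of these 3 comparisons.

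**Figure D4:**
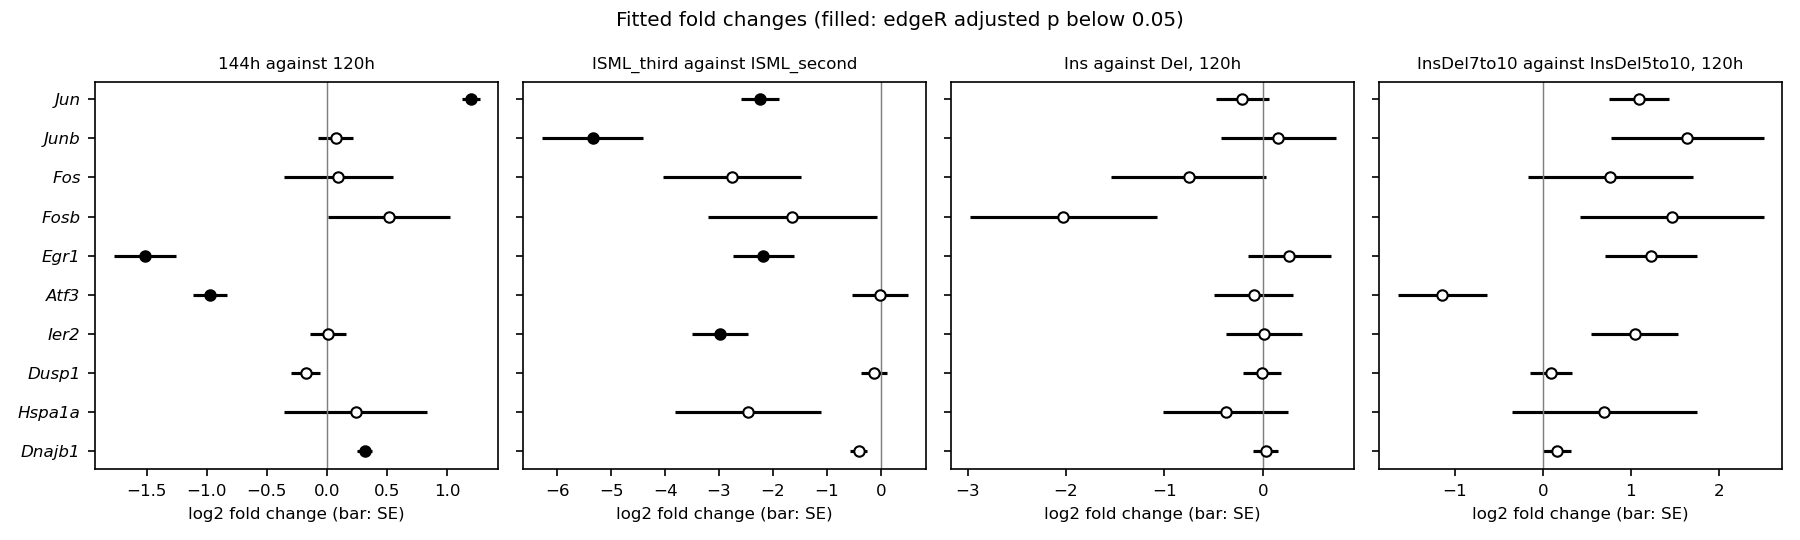
Fitted log2 fold change (x axis) of the 10 genes in 4 comparisons, with SE bars and filled points where the edgeR adjusted p was below 0.05. The stage panel and the ISML_third panel have 4 filled points each and the genotype panels none.

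Fos and Fosb followed another layout than Jun, Junb and Ier2. Fosb was between 2.33 and 2.82 CPM in 3 libraries, Del_120h replicate 1 (72 counts), InsDel7to10_120h replicate 2 (54 counts) and InsDel8to10_144h replicate 1 (51 counts), and at 0.951 CPM or below in the other 23. Fos was also highest in these 3, with 3.56, 2.53 and 5.02 CPM. They belong to 3 lines, 2 stages and 3 library names. Nr4a1, an early gene of the nuclear receptor family picked after its values were seen, had 3.25, 1.33 and 4.79 CPM in them, below its highest value of 6.35 CPM in InvClone1_168h replicate 1. Spearman's rho of Fos and Fosb over the 26 libraries was 0.608, and this pair was picked after its values were seen. The high Fosb value of Del stands in a group whose other libraries had 4 and 12 counts.

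Fos and Egr1 were the early genes whose relation was planned for a test, with Fos and Hspa1a, and Hspa1a and Dnajb1, as the other pairs (log2(CPM + 1), permutation tests, two-sided, adjusted over the 3 pairs). Over all 26 libraries Pearson's r of Fos and Egr1 was 0.553 (permutation p = 0.00317, adjusted p = 0.00951) and Spearman's rho 0.617 (permutation p = 0.00104, adjusted p = 0.00312), and r was 0.554 without the 2 libraries farthest from the median of Fos. Within ISML_third r was 0.816 (n = 10, permutation p = 0.00338, adjusted p = 0.0101) and rho 0.891 (permutation p = 0.00106, adjusted p = 0.00318), with r = 0.723 without the 2 farthest. Within ISML_second r was 0.457 (n = 10, permutation p = 0.173) and rho 0.709 (permutation p = 0.0276, adjusted p = 0.0828), with r = 0.772 without the 2 farthest, InsDel8to10_144h replicate 1 and InvClone1_144h replicate 2. The ISML_first and TruSeq_second libraries are too few for a value. Hspa1a and Dnajb1 had r = 0.386 (permutation p = 0.0513) and rho = 0.314 (permutation p = 0.118) over the 26 libraries, and within ISML_second and ISML_third r was 0.118 and 0.4662 (n = 10 each, permutation p = 0.744 and 0.172). Fos and Hspa1a had r = 0.428 (permutation p = 0.0283, adjusted p = 0.0425), which rests on 2 libraries, since it was 0.0239 without InsDel8to10_144h replicate 1 and Del_120h replicate 1, and rho was 0.147 (permutation p = 0.472). Libraries share lines, so that these p-values treat related libraries as independent.

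Junb and Ier2 were the closest pair of the 10, a choice made after the values were seen. Their libraries fall into sets by library name, so only values within a name are given. In ISML_third r was 0.969 and rho 0.867 (n = 10), and r was 0.794 without InsDel7to10_120h replicate 1 and InvClone2_120h replicate 2. In ISML_second r was 0.806 and rho 0.612 (n = 10), and r was 0.264 without InvClone1_144h replicate 2 and Del_144h replicate 1, on which that relation rests. Junb (chr8:84976909-84978718) and Ier2 (chr8:84661330-84662854) lie near each other on build mm10, as does Dnajb1 (chr8:83608192-83612653), whose level moved little. Fos lies at chr12:85473889-85477273, Jun at chr4:95049033-95052222 and Fosb at chr7:19302695-19310051, per the deposited table.

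**Figure D5:**
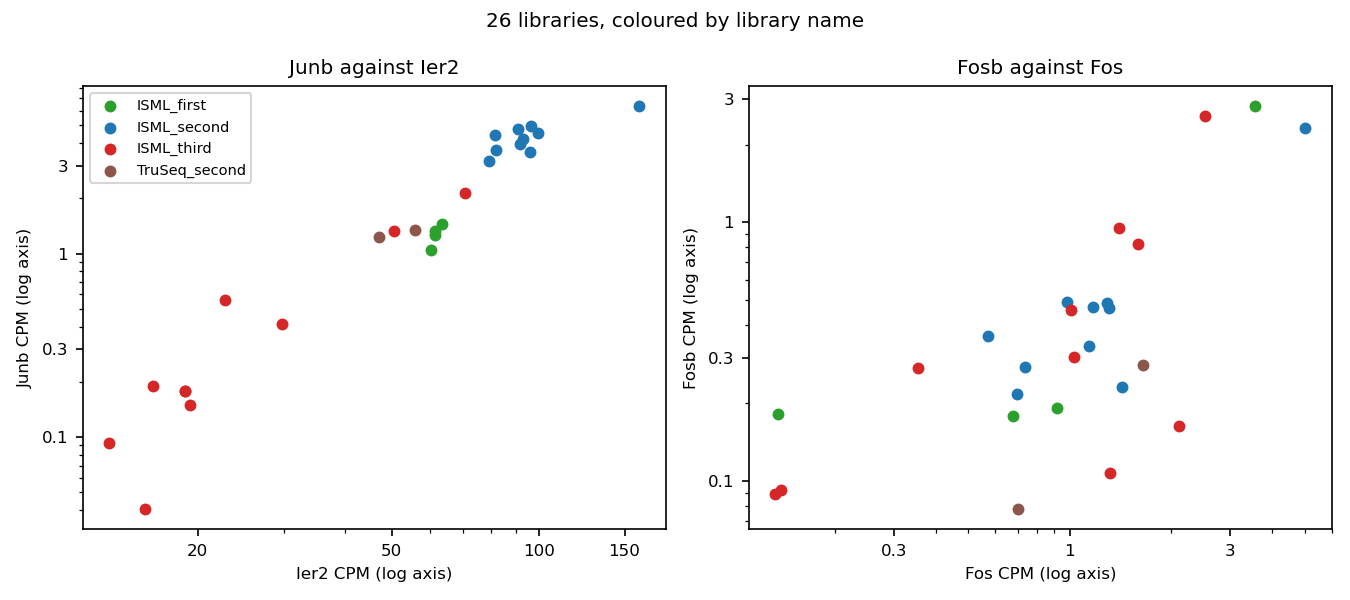
CPM of Junb against Ier2 and of Fosb against Fos (log axes), 1 point for each of the 26 libraries, coloured by library name. Junb and Ier2 are highest in the ISML_second libraries. Most ISML_third libraries lie below those of the other 2 names, with InvClone2_120h replicate 2 among them and InsDel7to10_120h replicate 1 above them. The 3 libraries with Fosb at 2.33 CPM or more come from 3 names.

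Genes with a pattern like these were sought among 12230 named genes outside the 10 with a mean of at least 1 CPM (Spearman's rho on CPM over the 26 libraries, as a description). The highest for Fos were Rdh5 (0.763), Nrarp (0.712), Chrna5 (0.667), Klf10 (0.660, itself an early response gene) and Rhbdd2 (0.614). For Hspa1a they were Rsph3b (0.701), Jph3 (0.694), Dpm3 (0.678), Rab10os (0.669) and Auts2 (0.667), at counts near the floor. No gene reached 0.9 with Fos or Hspa1a. For Ier2, Junb and Jun, looked at after their values were seen, 291, 218 and 113 genes did so (2.38%, 1.78% and 0.924% of those compared). The closest to Ier2 were Crlf2 (0.984), Lzts2 (0.982), Gtpbp6 (0.982), Zfp523 (0.979) and Pcbp4 (0.978), and the closest to Jun were Arvcf (0.960), Samd14 (0.959), Rhpn1 (0.957), Msi1 (0.956) and Pbxip1 (0.955). Many genes outside the 10 thus ranked the 26 libraries much as Jun, Junb or Ier2 did. Whether those genes divide by library name was not tested. Other immediate early and heat shock genes were among the genes compared.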

How the data were processed

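Polyadenylated RNA of 26 gastruloid libraries was analysed. The authors deposited raw read counts, which are whole numbers, for 55141 genes, and FPKM for 55138 genes. Their tools were cutadapt 1.18, STAR 2.7.10a and Cufflinks 2.2.1 on build mm10, per the submitters' processing notes. Strand setting and annotation of the counting are unknown here, so overlapping, antisense and near-identical genes are uncertain. 8 columns (4 in each table) matched no sample and were not used.

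Tests on counts used edgeR 4.0.16 (R 4.3.3; quasi-likelihood, robust, TMM, minimum count 10, Benjamini-Hochberg, threshold 0.05). The stage fit used the 10 ISML_second libraries with line and stage as terms (4 residual degrees of freedom). The others came from 1 fit of all 26 libraries with group and library name as terms (8 residual degrees of freedom), in which 8 of 15 groups hold 1 library, assumed to vary like the rest. In simulated counts for the stage fit, 92% of 2-fold and 100% of 4-fold changes were recovered, and 75% and 94% for Ins against Del. The changes were placed only in genes with higher mean counts than Fos, Fosb and Hspa1a (30.5, 13.3 and 4.31 over the 26 libraries). The simulated levels held no other effect of line, stage or library name. These rates therefore do not cover Fos, Fosb or Hspa1a. In the real fit of Ins against Del, the SE was 0.58 for Junb, 0.42 for Egr1, 0.40 for Atf3 and 0.39 for Ier2. It was 0.27 for Jun, 0.19 for Dusp1 and 0.13 for Dnajb1, and 1 gene was called in all. The rates do not show that a 2-fold change of the genes with the larger SE would have passed there. CPM used TMM-scaled totals. Correlations used log2(CPM + 1) and 100000 permutations. Sequences came from RefSeq.

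Groups came from the labels. Nothing in them ties replicates to separate cultures, and the p-values cover only a spread between samples that may be technical. Replicates differed by 14.7 to 200 chi-square units per degree of freedom. For the labels' replicate numbers, same-numbered deviations of Ins and Del had correlations of 0.627, 0.408 and 0.77. In both lines 1 and 2 are ISML_first and 3 is ISML_second. These values therefore cannot tell pairing by number from a shared library name. The genes and lists were chosen with earlier results of these data known. In each comparison the genes called and the lowest and highest of the 10 were named, and up to 4 called genes each way of the other lists; 1 gene that this rule takes is not reported here. Alternatives were DESeq2 1.42.0, its size factors, no filter, other terms or fewer libraries, a replicate block and leaving out each library; leaving out the 3 libraries that stood apart and crossing the replicate numbers were chosen after seeing the data.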

Additional observations from a re-analysis of the deposited data

Results flagged for a closer look

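Egr1 had 25.6 CPM in InvClone1_120h replicate 4, the ISML_second library of the only group of 4, where the other libraries had 3.69 CPM (ISML_third) and 4.47 and 5.03 CPM (TruSeq_second). This value lay farther from the others than Dixon's criterion allows at 95%. The 10 genes were examined this way in that group. Chance marks about 1 in 20 genes examined, so that 1 mark among 10 genes is not unusual. The library name moves with this value, and at 120h the other 4 ISML_second libraries had 13.1 to 24.8 CPM.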

How the results depend on the processing

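Of 78 counts of the 10 genes called under an alternative, 52 equalled the count given above and 66 stayed within 1.5 times, and of 78 counts of all genes called, 29 stayed within 1.5 times. Of 210 fold changes of single named genes, 184 kept their direction and side of the threshold. Where a count or a call did not hold, the cause was not tested, except that fewer libraries were fitted when some were left out. Depth limits Hspa1a, Fosb and the Junb values of ISML_third, which rest on a few counts.

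With no filter on low counts, 89 genes and 1 of the 10 (Fosb) were called for Ins against Del, 957 and 3 for InsDel7to10 against InsDel5to10, 383 and 1 for InsDel5to10 against InvClone2, 1802 and 4 for ISML_second against ISML_first, and 1489 and 4 for TruSeq_second against ISML_second. DESeq2 called 2, 290, 50, 708 and 705 genes in these 5 comparisons, with 1 of the 10 in each of the last 2. Line and stage terms in place of group gave 1565 genes and 3 of the 10 for ISML_second against ISML_first and 2386 and 3 for TruSeq_second against ISML_second. With no library term, InsDel7to10 against InsDel5to10 had 7 genes and InsDel5to10 against InvClone2 had 6. In the compared libraries alone, 0 genes were called for Ins against Del and 4 for InsDel7to10 against InsDel5to10. With the replicate block, Ins against Del had 2 genes, InsDel7to10 against InsDel5to10 had 3 and InsDel5to10 against InvClone2 had 932 and 1 of the 10 (Ier2), a pair of lines that share only 2 numbers (correlation 0.437). The block changed no other call of the 10. The numbers of InsDel7to10 and InsDel5to10 had a correlation of -0.181, and crossing them gave 4 genes. Without the libraries that stood apart, the stages had 4993 genes and TruSeq_second against ISML_second 16.

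Leaving out 1 library at a time gave 1424 to 4995 genes and 3 to 5 of the 10 for the stages (the 5th is Ier2), 3 to 939 genes and 0 to 3 of the 10 for InsDel7to10 against InsDel5to10 (most without InsDel7to10_120h replicate 2), 3 to 9 genes for InsDel5to10 against InvClone2, 39 to 260 genes and 0 to 1 of the 10 for ISML_second against ISML_first, 2817 to 5281 genes and 3 to 4 of the 10 for ISML_third against ISML_second, and 17 to 1008 genes for TruSeq_second against ISML_second (most without InvClone1_120h replicate 4). Values that turned in sign were small or rested on 1 library. They were Egr1 for Ins against Del (-0.0455 and -0.0328; range without 1 library -0.0455 to 0.966), Junb for InsDel7to10 against InsDel5to10 (-0.906; range -0.906 to 2.88), Fosb for ISML_second against ISML_first without Del_120h replicate 1 or 3 (1.35 and 1.32; range -1.63 to 1.35), Hspa1a for TruSeq_second against ISML_second with line and stage terms (-0.0112), and Atf3 for ISML_third against ISML_second with DESeq2's size factors (0.00507), DESeq2 (0.0128), no filter (0.0261) and without either of 2 InvClone1 libraries at 120h (0.45; range -0.443 to 0.45).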
